A study of Mus musculus with 18 samples.

Results

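Proteasome genes were followed in the livers of male C57BL6 mice fed 2 diets with or without 1 of 2 perfluorinated compounds. The set was every gene measured by a probe with 1 gene symbol starting with Psma, Psmb, Psmc, Psmd, Psme, Psmf or Psmg, leaving out Psmb8 and Psmb9, and it held 47 of the 22180 genes on the array. Where a gene had several probes, the probe with the highest mean over the 18 arrays stood for it, which concerned 3 of the 47 genes. By role, 7 genes encode the alpha ring of the 20S core, 7 its beta ring, 2 immune-type beta subunits, 6 the ATPases of the 19S cap, 11 its other subunits, 5 activators or an inhibitor and 7 assembly chaperones. The remaining 2, Psmc3ip and Psme3ip1, share only the symbol and are not proteasome parts. Psma4, an alpha ring gene, was not in the set because both of its probes also carry a second symbol.

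The 26S proteasome is the protease that degrades proteins tagged with ubiquitin. Its 20S core is a stack of rings in which the outer alpha rings gate the entry and the inner beta rings hold the active sites. The 19S cap binds ubiquitin chains, removes them and unfolds the substrate with a ring of ATPases. Subunit genes are known to be transcribed together, in part under the transcription factor NRF1 (gene Nfe2l1), which is itself held down by proteasome activity. In liver the system removes misfolded and damaged proteins, including those of the endoplasmic reticulum, and the immunoproteasome variants serve antigen presentation.

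Low-fat diet provided 10% of energy as fat and high-fat diet 45%, both eaten for 12 weeks by mice 6 weeks old at the start and 18 weeks old at the end. On each diet there was a control group without compound, a group given PFOS (perfluorooctane sulfonic acid) and a group given PFNA (perfluorononanoic acid), with 3 livers and 3 arrays in each of the 6 groups. PFOS ends in a sulfonic acid and PFNA in a carboxylic acid, on fluorinated chains of equal carbon number. No dose is given in the sources used here, so the compounds could not be matched by dose. The labels number the livers within a group as biological replicates, and total RNA of liver tissue was profiled. The 7 hepatocyte markers checked, such as Alb and Apoa1, had mean signals at or above the 96.88th percentile of all probes.

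Values are log2 array signals as deposited, and a difference is the mean of the first group minus that of the second. Errors of means are SDs with n = 3, and errors of differences are standard errors (SE) or 95% confidence intervals from a limma fit to all 18 arrays. A gene was called when its adjusted p (Benjamini-Hochberg, over all 34472 probes) was under 0.05. Of the 47 genes, 44 had a mean signal above the median probe (4.48). Psma5, Psmb11 and Psmg4 lay below it, with means of 4.20, 3.75 and 4.17, and no difference in these 3 was called. Whole liver was measured, so fewer cells of a type and less RNA per cell cannot be told apart.

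Array medians ranged from 4.43 to 4.59. On the first principal component of all probes, 5 arrays scored between 27.8 and 38.6 and the other 13 between −22.9 and −8.1. These 5 were the 3 high-fat PFOS arrays, low-fat PFOS replicate 3 and high-fat PFNA replicate 3. Since replicate 3 of these 2 groups stood apart from its own group, results that rest on these 2 arrays are given with and without them.

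The promoters of 4 genes on which the results turn are shown first, the 3 called in any comparison with controls (Psmf1, Psmg1 and Psmd5) and Psmb5, a catalytic subunit whose 5 highest signals were in the 5 arrays named above. Each line holds the 250 bases before the RefSeq transcript start, read 5′ to 3′ on the gene's strand, which is the minus strand in all 4. Coordinates are of GRCm38.p6. Psmf1 lies at chr2:151741311-151741560, Psmg1 at chr16:95990961-95991210, Psmd5 at chr2:34870963-34871212 and Psmb5 at chr14:54617996-54618245. Capitals mark matches, on either strand, to the antioxidant response element that NRF1 and NRF2 bind (TGACNNNGC), the box bound by NF-Y (CCAAT), the GC box bound by SP1 (GGGCGG) and the motif of the ETS family of factors (CCGGAAG). No match overlaps another in these 4 promoters.
Psmf1: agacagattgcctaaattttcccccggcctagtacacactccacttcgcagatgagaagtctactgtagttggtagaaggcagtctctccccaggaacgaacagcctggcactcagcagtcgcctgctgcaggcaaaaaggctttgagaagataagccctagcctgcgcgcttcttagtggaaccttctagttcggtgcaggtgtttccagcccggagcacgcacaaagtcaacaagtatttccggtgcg
Psmg1: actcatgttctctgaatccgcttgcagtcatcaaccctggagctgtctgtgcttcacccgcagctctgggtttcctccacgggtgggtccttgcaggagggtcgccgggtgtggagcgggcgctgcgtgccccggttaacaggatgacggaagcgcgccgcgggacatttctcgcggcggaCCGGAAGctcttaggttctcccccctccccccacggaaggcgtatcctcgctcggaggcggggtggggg
Psmd5: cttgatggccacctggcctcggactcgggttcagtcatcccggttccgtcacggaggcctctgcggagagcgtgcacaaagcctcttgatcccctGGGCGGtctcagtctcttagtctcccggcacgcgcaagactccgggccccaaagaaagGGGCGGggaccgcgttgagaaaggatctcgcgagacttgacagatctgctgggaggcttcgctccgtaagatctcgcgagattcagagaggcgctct
Psmb5: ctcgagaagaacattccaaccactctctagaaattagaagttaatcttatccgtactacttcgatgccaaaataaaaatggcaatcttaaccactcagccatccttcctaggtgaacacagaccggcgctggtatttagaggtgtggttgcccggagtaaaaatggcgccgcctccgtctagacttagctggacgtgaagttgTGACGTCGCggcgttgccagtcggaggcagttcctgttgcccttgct

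The antioxidant response element of Psmb5 began 47 bases before the start, and Psmf1 held none of the 4 motifs in this window. RefSeq promoters were found for 39 of the 47 genes, with 43 promoters in all. TGACNNNGC was present in 5 of the 43 (11.6%), those of Psmb5, Psmb6, Psmc6, Psmd12 and Psmd9, against 11.7% of 12867 promoters of genes measured above the median probe. CCAAT was present in 34.9% of the proteasome promoters and 34.2% of those of all such genes, and GGGCGG in 51.2% and 54.6%. The ETS motif CCGGAAG was present in 32.6% and 12.0%. The 13 genes holding it included Psmg1, Psmd4, Psmd6 and Psmc1. The direct repeat that PPARA binds, searched as AGGTCA followed after 1 base by the same letters, was in 0 of the 43 and in 0.0233% of promoters of genes above the median probe. These shares describe letters in a window, not binding.

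The livers without compound were compared first, between the diets. No proteasome gene was called, and 1 of all 34472 probes was (0.0029%). At an unadjusted p under 0.05, limma gave 0 of the 47 genes in either direction, against 3.21% of all probes higher and 3.24% lower. The arrays of the 2 diets did not overlap in 1 gene, Psma1, which was higher on the high-fat diet, against 4.84% of all probes higher and 5.54% lower. The median difference over the 31 core subunits (alpha and beta rings and 19S cap) was 0.04, with single genes between −0.16 and 0.30, and the median over all probes was −0.01. In Psma1, an alpha ring subunit, the difference was 0.30 (SE 0.20, 95% interval −0.12 to 0.72, adjusted p = 0.863).

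PFOS on the high-fat diet was where the core subunits lay highest. All 31 core subunits had a positive difference from the high-fat control, with a median of 0.37 and a range from 0.14 to 0.79, while 47.8% of all probes were positive and their median was −0.01. In 25 of the 31 core subunits, and in 30 of the 47 genes, each of the 3 PFOS arrays was above each of the 3 controls, which was so for 9.71% of all probes and 14.3% of probes above the median signal. In 1 gene, Psmb10, all PFOS arrays were below all controls, as in 8.68% of all probes. Adjusted over all probes, 1 of the 47 genes was called, Psmd5, against 1.02% of all probes (0.632% higher and 0.389% lower), and no core subunit was. At an unadjusted p under 0.05, 24 of the 47 genes were higher and 0 lower, against 7.12% and 6.42% of all probes.

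**Figure D1:**
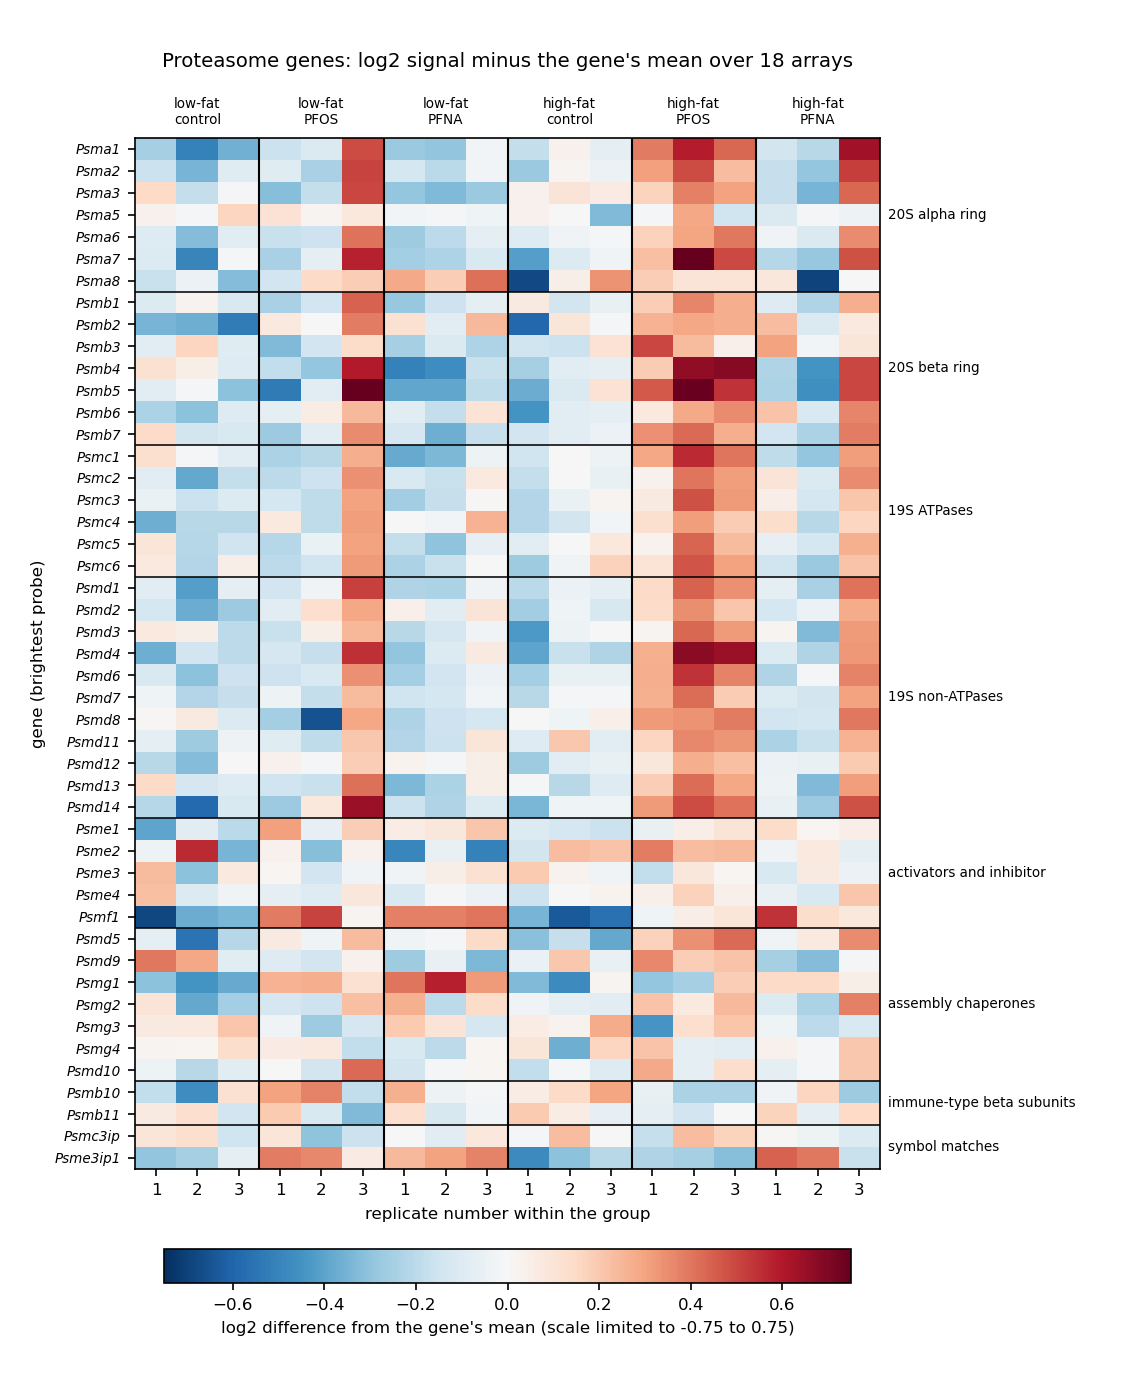
Log2 signal of each of the 47 genes (rows, grouped by role) in each of the 18 livers (columns, grouped by diet and compound) minus the gene's own mean; red is above the mean and blue below, and the colour scale is limited to the ends of its bar. Of the 31 core subunits in the upper 4 blocks, 30, 31 and 30 are above their mean in the 3 high-fat PFOS arrays, 31 in low-fat PFOS replicate 3 and 29 in high-fat PFNA replicate 3, while Psmf1, Psmg1 and Psme3ip1 follow other patterns.

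Psmb5 carries the chymotrypsin-like activity of the core and is the target of the drug bortezomib. It read 7.83, 8.09 and 8.31 in the high-fat controls and 8.66, 8.94 and 8.74 in the high-fat PFOS livers. On the low-fat diet Psmb5 read 8.12, 8.19 and 7.89 in the controls, 7.67, 8.12 and 9.0 under PFOS and 7.81, 7.81 and 8.01 under PFNA. Under PFNA on the high-fat diet Psmb5 read 7.96, 7.74 and 8.70. The 3 high-fat PFOS livers were thus above all 6 controls, and replicate 3 of low-fat PFOS and of high-fat PFNA lay with them and away from their own groups. The difference for high-fat PFOS was 0.70 (SE 0.27, 95% interval 0.14 to 1.27, adjusted p = 0.240), so it was not called. The limma SE of Psmb5 includes the spread of those 2 groups.

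The other catalytic beta subunits had smaller spreads. Psmb6, the caspase-like subunit, read 8.41, 8.77 and 8.78 in the high-fat controls and 8.93, 9.14 and 9.21 under PFOS on that diet, without overlap, and the difference was 0.44 (SE 0.15, adjusted p = 0.175). Psmb7, the trypsin-like subunit, read 9.93, 9.99 and 10.03 in the high-fat controls and 10.42, 10.50 and 10.35 under PFOS, also without overlap, at 0.44 (SE 0.17, adjusted p = 0.246). Psmb2, a structural beta subunit, read 7.49, 7.47 and 7.31 in the low-fat controls, 7.91, 7.84 and 8.22 under low-fat PFOS and 7.95, 7.75 and 8.08 under low-fat PFNA. Both exposed groups of Psmb2 lay above the low-fat controls, at 0.57 (SE 0.16, adjusted p = 0.162) and 0.50 (SE 0.16, adjusted p = 0.170), and neither was called. In the beta ring as a whole, 7 of 7 genes were positive under high-fat PFOS, with a median of 0.44, and 6 of 7 showed no overlap with the controls.

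In the alpha ring 7 of 7 genes were positive under high-fat PFOS (median 0.33) and 5 of 7 showed no overlap. Psma7 read 8.67, 8.98 and 9.06 in the high-fat controls and 9.31, 9.88 and 9.58 under PFOS, a difference of 0.69 (SE 0.23, adjusted p = 0.161). Psma1 read 7.66, 7.87 and 7.77 in the controls and 8.23, 8.43 and 8.27 under PFOS, at 0.54 (SE 0.20, adjusted p = 0.221). Psma8, which replaces another alpha subunit in testis, had signals between 3.98 and 5.09, near the median probe, and its high-fat PFOS arrays overlapped the controls. Psma4 was measured only by probes shared with AY074887, and the brighter of these read 8.69, 8.87 and 9.03 in the high-fat controls and 9.29, 9.46 and 9.29 under PFOS (difference 0.48, SE 0.16, adjusted p = 0.156).

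The ATPases of the 19S cap were positive in 6 of 6 genes under high-fat PFOS, with a median of 0.33 and 4 of 6 without overlap. Psmc1 read 8.46, 8.61 and 8.57 in the high-fat controls and 8.90, 9.17 and 9.01 under PFOS, at 0.48 (SE 0.17, adjusted p = 0.190). Psmc4 read 9.06, 9.14 and 9.26 in the controls and 9.40, 9.59 and 9.47 under PFOS, at 0.33 (SE 0.14, adjusted p = 0.308). Psmc4 also lay above the low-fat controls without overlap under PFOS (0.33) and PFNA (0.34) on the low-fat diet, and neither was called.

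The other 19S subunits were positive in 11 of 11 genes under high-fat PFOS, with a median of 0.40 and 10 of 11 without overlap. Psmd4, a ubiquitin receptor of the cap, read 7.96, 8.19 and 8.13 in the high-fat controls and 8.62, 9.03 and 9.0 under PFOS. The groups did not overlap, and the difference of Psmd4 was the highest of the 47 genes in this comparison, at 0.79 (SE 0.19, 95% interval 0.39 to 1.19, adjusted p = 0.0534). Psmd14, the enzyme that cuts ubiquitin chains off the substrate, read 6.34, 6.65 and 6.65 in the controls and 7.0, 7.17 and 7.09 under PFOS, at 0.54 (SE 0.21, adjusted p = 0.255). Psmd6, a scaffold subunit of the lid, differed by 0.52 (SE 0.16, adjusted p = 0.129). Psmd2, the large scaffold of the base, differed by 0.37 (SE 0.13, adjusted p = 0.215), and by the same 0.37 under PFOS on the low-fat diet.

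The core subunits moved together from liver to liver. As a summary, each core gene's mean over the 18 arrays was subtracted and the median over the 31 genes taken in each array. This deviation was 0.18, 0.42 and 0.31 in the high-fat PFOS livers and −0.22, −0.033 and −0.039 in the high-fat controls. It was −0.085, −0.21 and −0.10 in the low-fat controls and −0.23, −0.17 and −0.025 under low-fat PFNA, so these groups overlapped. Under low-fat PFOS it was −0.16, −0.14 and 0.34, and under high-fat PFNA −0.10, −0.21 and 0.32. Replicate 3 of these 2 groups thus read as high as the high-fat PFOS livers, while their other 2 livers read like controls. In low-fat PFOS, replicate 3 was the highest of the 9 low-fat arrays in 28 of 31 core subunits, against 14.2% of all probes. In high-fat PFNA, replicate 3 was above all 3 high-fat controls in 27 of 31, against 25.7% of all probes.

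Within groups, the deviations of 2 core subunits from their group means correlated with a median Pearson r of 0.80 (interquartile range 0.64 to 0.87) over 435 pairs of the 30 core subunits above the median probe. For all pairs of the 12939 genes above the median probe the median was 0.0075. These values are across the same 18 arrays after the group means were subtracted. The part of RNA input or quality in them was not tested. Without replicate 3 of low-fat PFOS and of high-fat PFNA the core median was 0.51. The median over all genes was not computed without them. Named for their place in this order, the lowest core members were Psmb3 (median r with the other core subunits 0.21), Psma8 (0.41) and Psmb2 (0.48), which were at −0.13, 0.34 and 0.43 without the 2 arrays. Outside the core, Psme4 (0.73), Psmd5 (0.67) and Psmg2 (0.60) had the highest values, and 0.56, 0.45 and 0.15 without the 2 arrays. The negative values of Psme3ip1 (−0.59), Psmf1 (−0.54) and Psmb10 (−0.51) rested on the 2 arrays, since without them they were 0.33, −0.014 and 0.031.

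**Figure D2:**
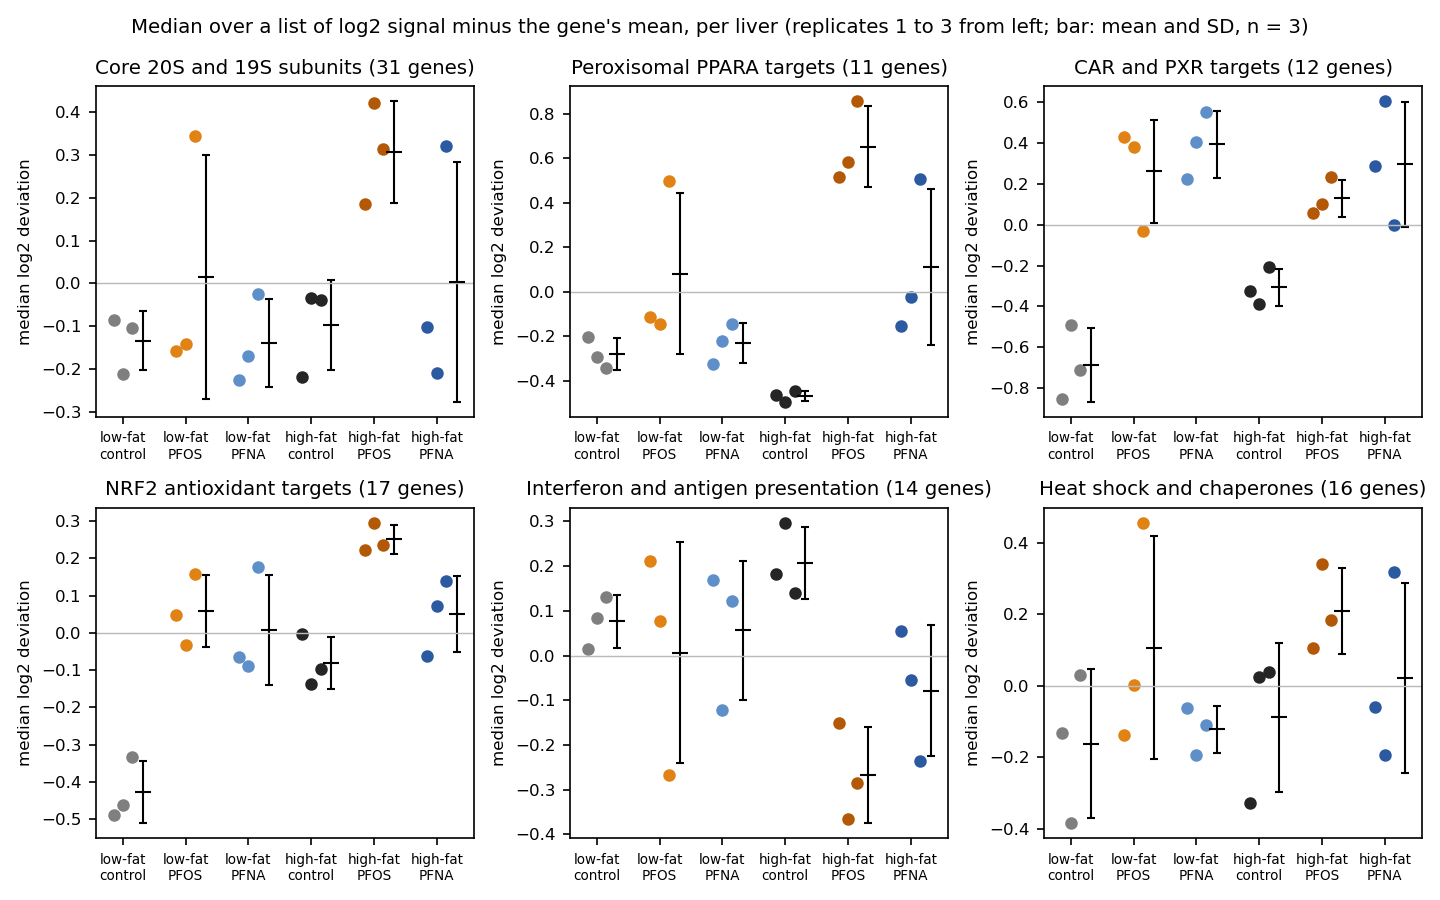
Median over a gene list of log2 signal minus each gene's mean (vertical axis), for each liver by group (points, replicates 1 to 3 from the left) with the group mean and SD (n = 3), for the core subunits and 5 other lists. For the core subunits and the PPARA targets, the 3 high-fat PFOS livers and replicate 3 of low-fat PFOS and of high-fat PFNA lie above all other livers. In the heat shock panel, the high-fat PFOS livers and the highest liver of low-fat PFOS and of high-fat PFNA lie above all control and low-fat PFNA livers. The panel titled peroxisomal PPARA targets also holds targets outside the peroxisome.

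The same 5 livers stood out in other gene lists. The median deviation of 11 targets of PPARA, the fatty acid receptor of liver, was between 0.50 and 0.86 in them and −0.023 or lower in each of the other 13. This list is not of peroxisomal genes alone, since it also holds Cyp4a14, Cyp4a31, Vnn1, Pdk4 and Fgf21. In high-fat PFOS 6 of these 11 genes rose and 0 fell (1.02% of all probes called), such as Acaa1b, a thiolase (0.96, SE 0.13, adjusted p = 0.00178), and Acot3, a thioesterase (1.48, SE 0.24, adjusted p = 0.00935). Cell type markers were read in the same comparison, and none of the 7 lists held a called gene. For the 7 hepatocyte markers 0 were positive, the median was −0.19 and the mean level was 12.72 to 12.79 in the controls and 12.50 to 12.56 under PFOS. The lists of lymphocytes (0 of 8 positive, mean level 4.68 to 5.01 and 4.54 to 4.62), stellate cells and fibroblasts (2 of 8, 7.25 to 8.28 and 7.16 to 7.49) and cholangiocytes (1 of 5, 4.23 to 4.94 and 4.28 to 4.49) were also mostly lower. Endothelial (4 of 8 positive, 7.87 to 8.33 and 8.04 to 8.37), Kupffer cell (4 of 8, 6.80 to 7.94 and 7.29 to 7.69) and neutrophil markers (3 of 7, 3.52 to 3.59 and 3.47 to 3.56) were mixed. The part of cell composition in the difference of the core subunits was not tested.

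Leaving out low-fat PFOS replicate 3 and high-fat PFNA replicate 3 left the high-fat PFOS and control arrays as they were and narrowed the spread shared by all groups. Then 9 of the 47 genes were called higher under high-fat PFOS (2.93% of all probes called in either direction). They included Psmd4 (adjusted p = 0.00535), Psma1 (0.0219), Psmb5 (0.0238) and Psma7 (0.0338), with the same differences as before. Since the choice of these 2 arrays was made from their measured values, the adjusted p-values are not independent evidence.

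The 2 compounds were also set against each other on the high-fat diet, as exposures whose doses could not be matched, so the contrast does not address their head groups. PFNA was below PFOS in 31 of 31 core subunits, with a median difference of −0.31. None of the 47 genes was called (0.0029% of all probes were), and at an unadjusted p under 0.05 limma gave 9 lower and 1 higher, against 3.76% and 3.49% of all probes. All PFNA arrays were below all PFOS arrays in 4 of the 47 genes and above them in 1, against 5.14% and 5.13% of all probes. For Psmb5 the difference between PFNA and PFOS was −0.65 (SE 0.27, 95% interval −1.21 to −0.08, adjusted p = 0.655) and for Psmd4 it was −0.53 (SE 0.19, 95% interval −0.93 to −0.13, adjusted p = 0.654). These sizes moved with high-fat PFNA replicate 3. Without it and low-fat PFOS replicate 3, the core median was −0.47 and 7 of the 47 genes were called (1.48% of all probes), 6 of them lower under PFNA, among them Psmb5 (−0.93, adjusted p = 0.0153) and Psma1 (−0.65, adjusted p = 0.0246). Psme3ip1 was the gene called higher. The PFNA array left out was chosen for reading like the high-fat PFOS livers, so a larger difference from PFOS follows from that choice and is no evidence for one.

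On the low-fat diet the compounds were compared in the same way, and this was the second of 2 such pairs. PFNA minus PFOS had a core median of −0.17, with 3 of 31 core subunits positive, and −0.013 (14 of 31 positive) without the 2 arrays. No proteasome gene and no probe of the array was called (0%), and at an unadjusted p under 0.05 limma gave 0 of the 47 genes in either direction, against 2.1% of all probes higher and 1.82% lower. The arrays did not overlap in 1 gene higher and 1 lower under PFNA, against 4.62% and 4.36%. For Psmb5, the PFNA groups differed from their own controls by −0.19 on the low-fat diet (95% interval −0.76 to 0.38) and by 0.06 on the high-fat diet (−0.51 to 0.62). Under PFNA on the low-fat diet 16 of 31 core subunits were positive, with a median of 0.0033. Under PFNA on the high-fat diet it was 27 of 31, with a median of 0.12 that became −0.047 (12 of 31) without the 2 arrays.

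The question whether diet altered the response to PFOS rests on the interaction, the high-fat minus the low-fat difference. No probe of the array was called for it (0%), and none of the 47 genes. Its median over the core subunits was 0.21, positive in 28 of 31, and 0.41, positive in 30 of 31, without the 2 arrays, where 0 of the 47 genes and 83 of all probes (0.241%) were called. One of these arrays was left out for reading like the high-fat PFOS livers, so a larger interaction without it follows from that choice. At an unadjusted p under 0.05, limma gave 2 genes higher and 2 lower, against 3.1% and 3.26% of all probes. Psmb4, a structural beta subunit, had the highest interaction of the 47 (0.63, SE 0.33, adjusted p = 0.800), and is named for that after its values were seen. Under low-fat PFOS the core median was 0.20 with 28 of 31 positive, and 0.0083 with 17 of 31 positive without the 2 arrays. The interaction for PFNA was called in none of the 47 genes and in 0% of probes, and at an unadjusted p under 0.05 in 0 higher and 1 lower (Psmg1), against 2.45% and 2.73% of all probes.

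**Figure D3:**
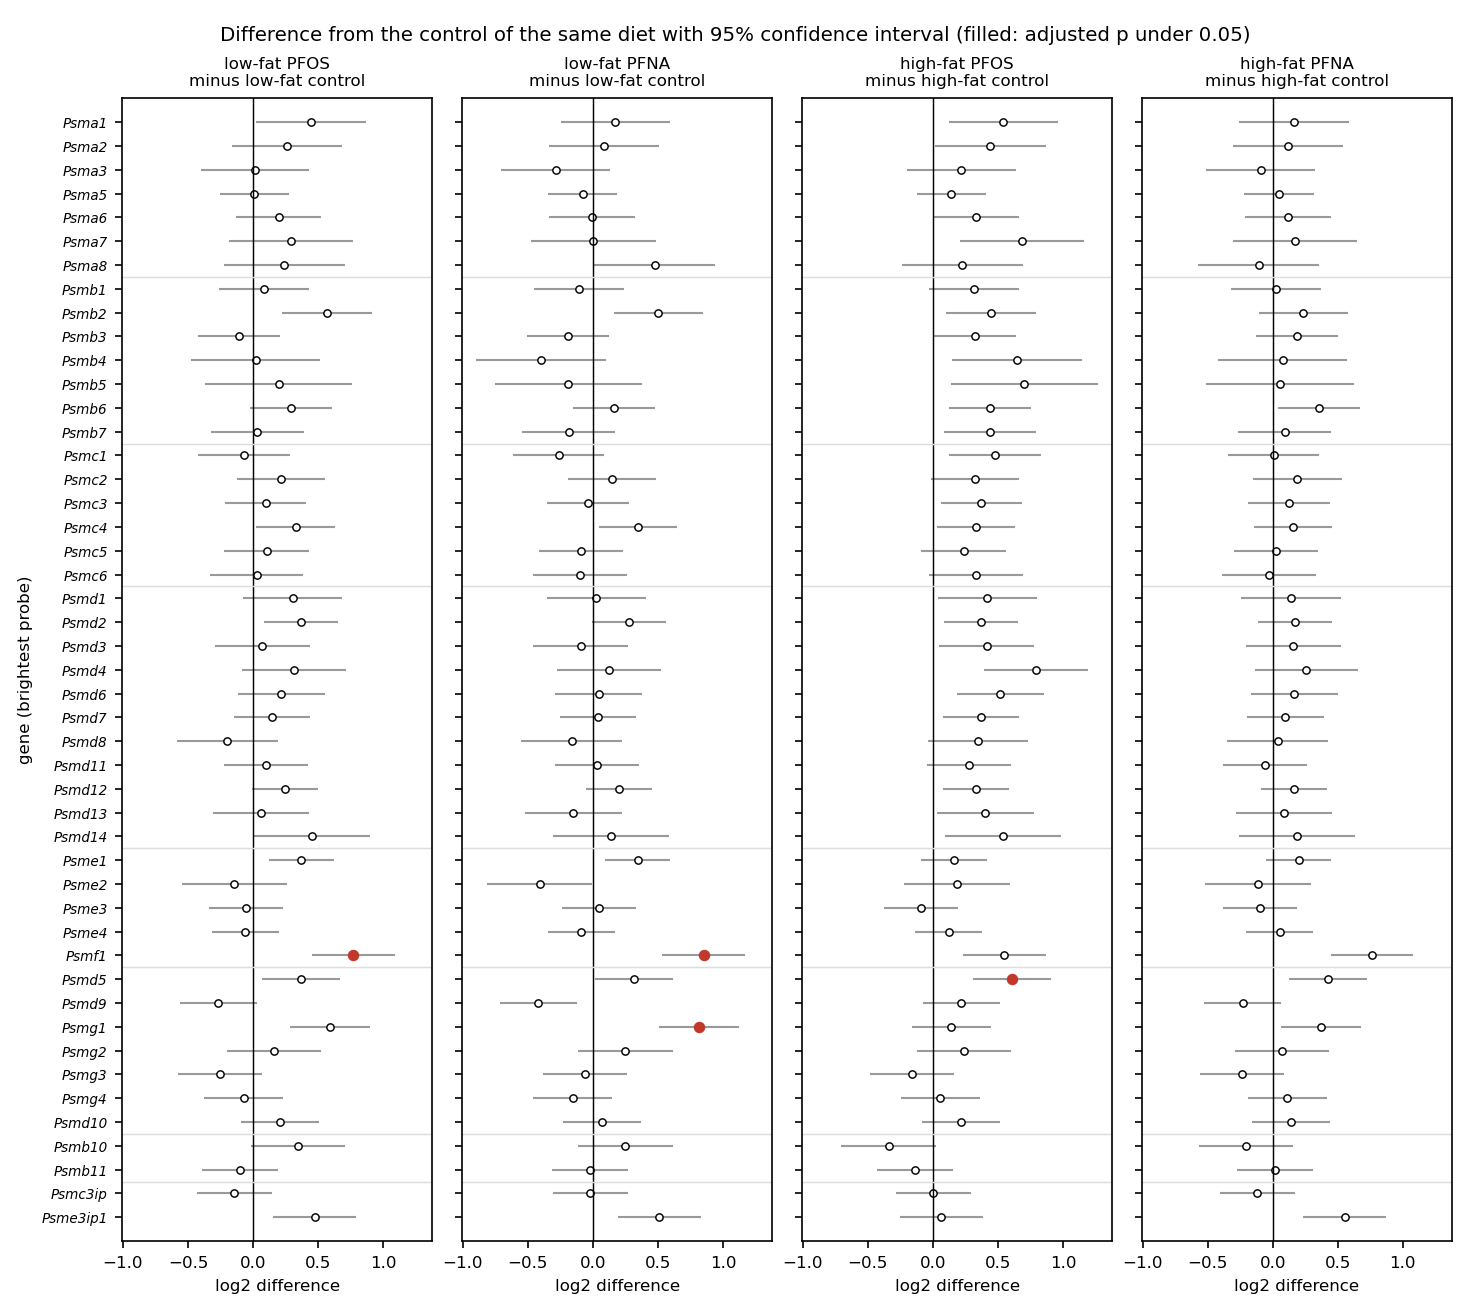
Log2 difference from the control of the same diet (horizontal axis) for each of the 47 genes (rows, grouped by role) in the 4 exposures, with 95% confidence intervals from limma; filled red points had an adjusted p under 0.05. Under high-fat PFOS all 31 core subunits lie to the right of 0, and the filled points are Psmf1 in both low-fat exposures, Psmg1 under low-fat PFNA and Psmd5 under high-fat PFOS.

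Psmf1 encodes PI31, a protein that binds the 20S core, inhibits it in the test tube and can carry proteasomes along axons. It read 7.28, 7.59 and 7.62 in the low-fat controls, 8.35, 8.47 and 7.98 under low-fat PFOS and 8.34, 8.34 and 8.36 under low-fat PFNA. On the high-fat diet Psmf1 read 7.61, 7.33 and 7.40 in the controls, 7.93, 8.01 and 8.05 under PFOS and 8.50, 8.09 and 8.04 under PFNA. All 12 exposed livers were above all 6 controls. Psmf1 rose under low-fat PFOS by 0.77 (SE 0.15, 95% interval 0.45 to 1.09, adjusted p = 0.0387) and under low-fat PFNA by 0.85 (SE 0.15, 0.53 to 1.17, adjusted p = 0.0163). It was the single proteasome gene called under low-fat PFOS, where 0.389% of all probes were (0.281% higher and 0.107% lower), and 1 of 2 under low-fat PFNA, where 0.566% were (0.374% higher and 0.191% lower). At an unadjusted p under 0.05, limma gave 10 of the 47 genes higher and 0 lower under low-fat PFOS, against 6.01% and 5.94% of all probes, and 8 higher and 2 lower under low-fat PFNA, against 6.66% and 6.21%. All exposed arrays were above all controls in 10 genes under PFOS (7.58% of all probes) and 9 under PFNA (10.1%), and below them in 1 (8.12%) and 4 (9.32%). Of probes above the median signal, 11.7% and 16.3% were above all controls, so the share under PFNA was near this background.

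On the high-fat diet the differences of Psmf1 were 0.55 under PFOS (SE 0.15, adjusted p = 0.0874) and 0.76 under PFNA (SE 0.15, adjusted p = 0.0550), and neither was called. The one under PFNA was called with arrays centred on their median, with array weights and with a robust variance with trend. Both were called with only probes above the median signal tested, and without low-fat PFOS replicate 3 and high-fat PFNA replicate 3. Those 2 arrays were chosen from their measured values. Neither was called with quantile normalization or the replicate block. With the main settings none of the 47 genes was called under high-fat PFNA, and 0.113% of all probes were (0.087% higher and 0.0261% lower). At an unadjusted p under 0.05, limma gave 5 genes higher there (Psmf1, Psmg1, Psmd5, Psme3ip1 and Psmb6) and 0 lower, against 4.92% and 4.86% of all probes. Its arrays lay above all controls in 5 genes and below in 1, against 6.83% and 6.89%. Of probes above the median signal, 9.5% were above all controls and 7.68% below, so the share above was near this background. The 4 comparisons share their controls within a diet. The interactions with diet were −0.22 for PFOS (95% interval −0.67 to 0.23, adjusted p = 0.875) and −0.087 for PFNA (95% interval −0.54 to 0.36, adjusted p = 0.979). In the moderated F test over all 6 groups Psmf1 had the lowest adjusted p of the 47 genes, 0.00864, and was called (0.96% of all probes), also when any 1 of the 18 arrays was left out. The call under low-fat PFOS ended without low-fat control replicate 1 (adjusted p = 0.130), 2 (0.0836) or 3 (0.0643) and without PFOS replicate 1 (0.133) or 2 (0.156), with differences of 0.66 to 0.91 over its 6 arrays left out in turn. It also ended with quantile normalization (adjusted p = 0.0734), with the replicate number as a block (0.0507) and with only the compared groups in the fit (0.290), while the call under low-fat PFNA held in these 3 settings (0.0308, 0.0243 and 0.0410). The call under low-fat PFNA ended without low-fat control replicate 1 (0.0817) or 2 (0.0507) and without PFNA replicate 1 (0.0563), 2 (0.0537) or 3 (0.0879). Counting arrays outside each comparison, which enter the shared spread, the calls of Psmf1 held in 8 and 13 of the 18 fits with 1 array left out.

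Psmg1 encodes PAC1, a chaperone that pairs with the product of Psmg2 to build the alpha ring. It read 6.46, 6.32 and 6.39 in the low-fat controls, 7.03, 7.04 and 6.88 under low-fat PFOS and 7.17, 7.35 and 7.09 under low-fat PFNA, so both exposed groups lay above the controls. On the high-fat diet Psmg1 read 6.44, 6.29 and 6.79 in the controls, 6.48, 6.52 and 6.95 under PFOS and 6.91, 6.91 and 6.81 under PFNA, and here only PFNA was free of overlap. Psmg1 rose under low-fat PFNA by 0.81 (SE 0.15, adjusted p = 0.0166). The difference was 0.59 under low-fat PFOS (SE 0.15, adjusted p = 0.0897), 0.14 under high-fat PFOS and 0.37 under high-fat PFNA (SE 0.15, adjusted p = 0.403). The interactions were −0.45 for PFOS (95% interval −0.88 to −0.02, adjusted p = 0.772) and −0.44 for PFNA (−0.88 to −0.01, adjusted p = 0.943).

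In the F test over the 6 groups Psmg1 had an adjusted p of 0.0366, a call that held in 5 of the 18 fits with 1 array left out. The call of Psmg1 under low-fat PFNA ended without low-fat control replicate 1 (adjusted p = 0.0545) or 2 (0.0694) and without PFNA replicate 1 (0.0533), 2 (0.0729) or 3 (0.0638), with differences of 0.74 to 0.87, and held in 13 of 18 such fits.

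Psmd5 encodes S5b, which assists the assembly of the ATPase ring and is not part of the finished particle. It read 8.35, 7.87 and 8.21 in the low-fat controls, 8.49, 8.39 and 8.66 under low-fat PFOS and 8.39, 8.41 and 8.57 under low-fat PFNA. On the high-fat diet Psmd5 read 8.11, 8.25 and 8.04 in the controls, 8.60, 8.77 and 8.85 under PFOS and 8.40, 8.50 and 8.78 under PFNA. Each exposed group of Psmd5 lay above the controls of its diet. It rose under high-fat PFOS by 0.61 (SE 0.14, adjusted p = 0.0497), and the other differences were 0.37 (adjusted p = 0.303), 0.31 (0.360) and 0.43 (0.307) under low-fat PFOS, low-fat PFNA and high-fat PFNA. The call ended without any 1 of the high-fat control replicates 1 (adjusted p = 0.112), 2 (0.0962) or 3 (0.154) or PFOS replicates 1 (0.0698), 2 (0.143) or 3 (0.162), and held in 4 of the 18 fits with 1 array left out. It also ended with only the compared groups in the fit (adjusted p = 0.0947).

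**Figure D4:**
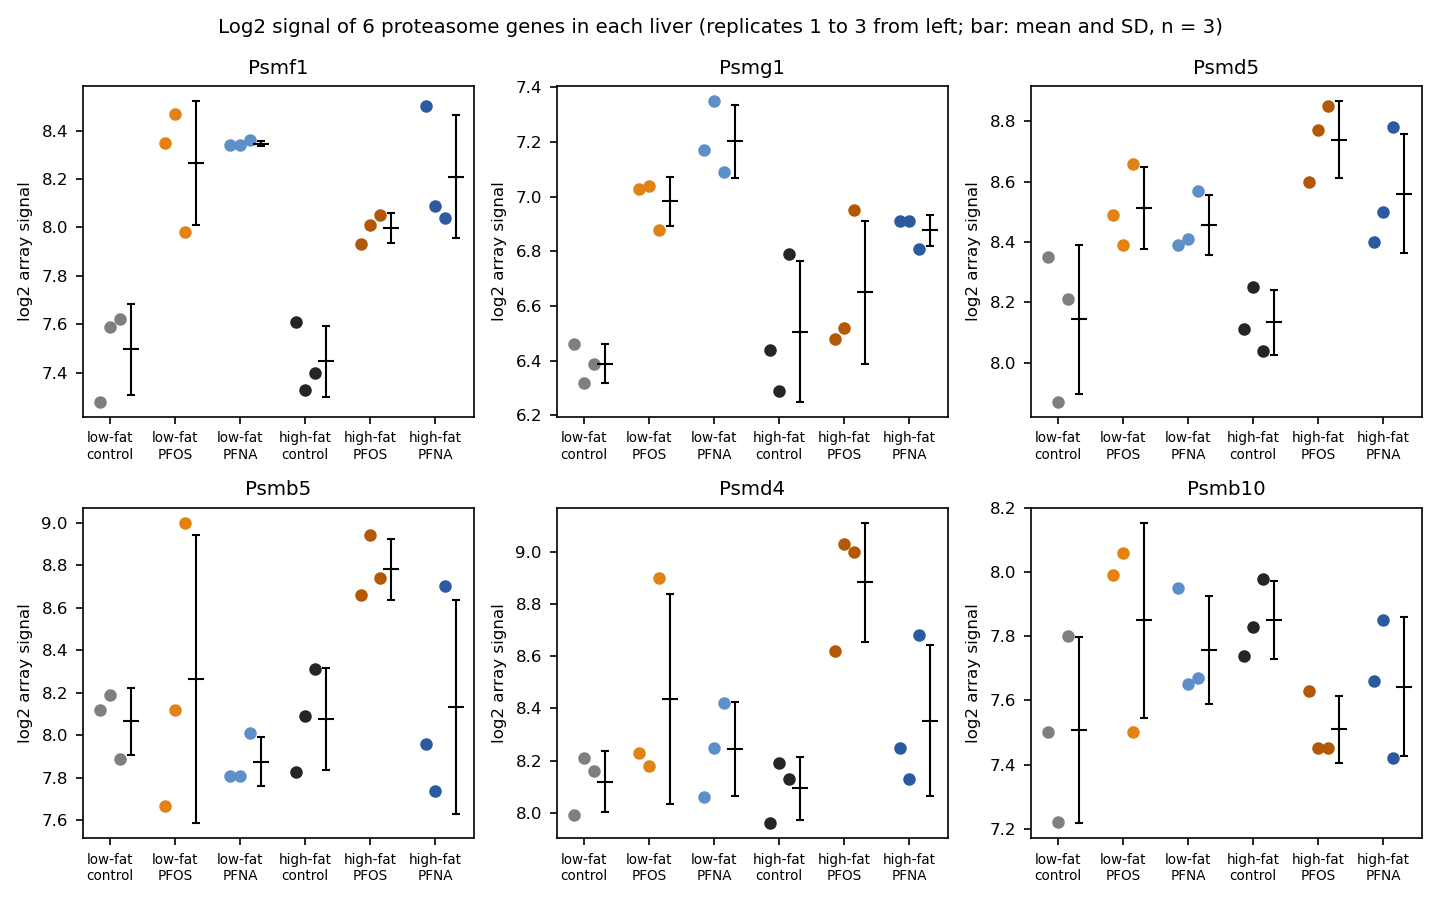
Log2 array signal (vertical axes, which do not start at 0) of Psmf1, Psmg1, Psmd5, Psmb5, Psmd4 and Psmb10 in each liver by group (points, replicates 1 to 3 from the left), with the mean and SD of each group (n = 3). Psmf1 lies between 7.28 and 7.62 in the 6 controls and between 7.93 and 8.50 in the 12 exposed livers, while Psmb5 and Psmd4 are high in the 3 high-fat PFOS livers and in 1 liver each of low-fat PFOS and high-fat PFNA.

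Of the remaining 5 assembly chaperones none was called in any exposure. Under high-fat PFOS the 7 chaperones had a median of 0.22 and a range from −0.16 to 0.61, and the 5 activators and inhibitors a median of 0.16 and a range from −0.093 to 0.55. The activators of the PA28 family gave no call. Psme1, the alpha subunit of the interferon-inducible activator, read 9.34, 9.65 and 9.53 in the low-fat controls, 10.04, 9.67 and 9.92 under low-fat PFOS and 9.79, 9.82 and 9.94 under low-fat PFNA. Each exposed group of Psme1 was above its controls in all 4 exposures, at 0.37, 0.34, 0.16 and 0.20 under low-fat PFOS, low-fat PFNA, high-fat PFOS and high-fat PFNA, and the lowest adjusted p was 0.198. Psme2, its partner, differed by −0.14, −0.41, 0.18 and −0.11 in the same order, with overlapping arrays and a lowest adjusted p of 0.383. Psme3, the nuclear member of the family, had differences between −0.097 and 0.043 in the 4 exposures, with overlapping arrays.

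Psmb10 encodes the immunoproteasome subunit that takes the place of Psmb7 after interferon. It read 7.74, 7.83 and 7.98 in the high-fat controls and 7.63, 7.45 and 7.45 under high-fat PFOS, without overlap and opposite in sign to the core subunits. The difference of Psmb10 was −0.34 (SE 0.17, 95% interval −0.70 to 0.02, adjusted p = 0.411). On the low-fat diet Psmb10 read 7.50, 7.22 and 7.80 in the controls and 7.99, 8.06 and 7.50 under PFOS, a difference of 0.34 (SE 0.17, adjusted p = 0.448). Its interaction of diet with PFOS was −0.68 (SE 0.24, 95% interval −1.20 to −0.17, adjusted p = 0.759) and was not called. Both values include low-fat PFOS replicate 3 (7.50), 1 of the 2 arrays set apart, and are given here only with it. Among 14 genes of interferon response and antigen presentation, 2 fell under high-fat PFOS and 0 rose, against 0.389% and 0.632% of all probes. They were the interferon-inducible GTPases Igtp (−1.15, SE 0.16, adjusted p = 0.00351) and Irgm1 (−0.99, SE 0.18, adjusted p = 0.0144). The median over these 14 genes was −0.37. Igtp also fell under low-fat PFOS (−0.80, adjusted p = 0.0460) and high-fat PFNA (−0.89, adjusted p = 0.0439). Psmb11, the thymus variant, stayed between 3.42 and 3.95, below the median probe.

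Of the 2 genes that share only the symbol, Psmc3ip, a recombination factor, had differences between −0.14 and 0.0033 in the 4 exposures. Psme3ip1, a partner of the nuclear activator, read 7.92, 7.97 and 8.15 in the low-fat controls, 8.60, 8.58 and 8.28 under low-fat PFOS and 8.46, 8.52 and 8.59 under low-fat PFNA. On the high-fat diet Psme3ip1 read 7.74, 7.91 and 8.01 in the controls, 7.99, 7.97 and 7.90 under PFOS and 8.66, 8.61 and 8.05 under PFNA. It was above the controls without overlap in 3 exposures (0.47, 0.51 and 0.55) and not under high-fat PFOS (0.07), and it was not called in any (lowest adjusted p = 0.130). Its F test had an adjusted p of 0.0542. Without low-fat PFOS replicate 3 and high-fat PFNA replicate 3, Psme3ip1 was called higher under low-fat PFOS, low-fat PFNA and high-fat PFNA. Of all probes, 1.32%, 1.72% and 0.429% were called in these fits. The 2 arrays were chosen from their measured values, so these calls are not independent evidence.

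Factors that act on the proteasome under other symbols were read under high-fat PFOS as well. Of 15 such genes 0 were called, 15 were positive and the median was 0.21. Pomp, the maturation factor of the 20S core, read 8.34, 8.51 and 8.47 in the high-fat controls and 8.94, 8.79 and 8.70 under PFOS, without overlap, at 0.37 (SE 0.16, adjusted p = 0.320). Usp14, a deubiquitinase of the cap, differed by 0.40 (SE 0.18, adjusted p = 0.329) and Ecpas, a proteasome scaffold, by 0.37 (SE 0.14, adjusted p = 0.220). Nfe2l1, the gene of NRF1, read 8.03, 8.07 and 8.21 in the high-fat controls and 8.31, 8.30 and 8.33 under PFOS, at 0.21 (SE 0.12, adjusted p = 0.475). NRF1 is controlled largely by its processing and turnover, which an RNA signal does not show.

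Lists of the neighbouring protein-quality systems gave few calls. In ubiquitin, p97 and endoplasmic reticulum degradation 1 of 19 genes fell under high-fat PFOS and 0 rose, against 0.389% and 0.632% of all probes. The 1 gene was Herpud1, a part of the ligase complex of that membrane, at −0.72 (SE 0.15, adjusted p = 0.0321). Of 16 heat shock genes none was called, with 12 of 16 positive under high-fat PFOS. Hspb1, a small heat shock protein, had 1.14 there (SE 0.36, adjusted p = 0.135) and Hspa1a, an inducible HSP70, −0.73 (SE 0.40, adjusted p = 0.460). The median deviation of the heat shock list was 0.10 to 0.34 in the high-fat PFOS livers. It reached 0.46 under low-fat PFOS and 0.32 under high-fat PFNA, and was 0.038 or lower in the controls and under low-fat PFNA. Of 16 autophagy genes none was called in any exposure, and the 2 named by size under high-fat PFOS were Atg12, a conjugation factor (0.50, SE 0.13, adjusted p = 0.0716), and Map1lc3b, the autophagosome marker (0.42, SE 0.21, adjusted p = 0.397).

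Targets of NRF2 and of the xenobiotic receptors CAR and PXR were read in the same exposures. Of 17 NRF2 antioxidant targets 4 rose under low-fat PFOS (0.281% of all probes rose) and 4 under low-fat PFNA (0.374%). There were 3 under high-fat PFOS (0.632%) and 1 under high-fat PFNA (0.087%), and 0 fell. In the F test over the 6 groups Nqo1, Abcc3, Abcc4, Gsta4 and Ephx1 were called (0.96% of all probes). The others of the list were not, among them Gclc (adjusted p = 0.407), Gclm (0.651), Txnrd1 (0.608), Srxn1 (0.588), Hmox1 (0.323) and Slc7a11 (0.942). The median deviation of this list averaged −0.43 ± 0.083 (SD, n = 3) in the low-fat controls and −0.080 ± 0.070 in the high-fat controls. It averaged 0.058 ± 0.095 under low-fat PFOS and 0.0076 ± 0.15 under low-fat PFNA. On the high-fat diet it was 0.25 ± 0.040 under PFOS and 0.050 ± 0.10 under PFNA. Nqo1, a quinone reductase, rose by 1.01 under low-fat PFOS (SE 0.20, adjusted p = 0.0415) and by 0.91 under low-fat PFNA (SE 0.20, adjusted p = 0.0495). Nfe2l2, the gene of NRF2 itself, had differences between −0.14 and 0.06 in the 4 exposures. Of 12 CAR and PXR targets 5, 5, 2 and 2 rose in the same order. Cyp2b10, the marker of CAR activation, rose in all 4 exposures, from signals of 3.81 to 4.58 in the 6 controls to 7.26 to 10.63 in the 12 exposed livers. The control signals of Cyp2b10 lay near the median probe, so no fold is given.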

How the data were processed

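Transcriptome Analysis Console is the tool that the submitters' processing notes name for the deposited table of 34472 probes in 18 arrays. The authors' deposited values were read as log2 signal from their range, because no label states the base. How background, normalization and summarization were handled is not given in those sources. For arrays, their number limits the precision.

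Group means were fitted to the 18 arrays with limma 3.58.1 in R 4.3.3 (12 residual and 5.21 prior degrees of freedom), and 9 contrasts and an F test over the 6 groups were computed, each adjusted over all probes. The script was tested on simulated data. Symbols came from the probe annotation of the array and all 47 matched RefSeq. The 47 genes, the 15 lists of other genes and cell markers and the 2 arrays left out together were chosen with earlier results of these data known, so no list is independent evidence.

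Named genes were 14 fixed ones (such as Psmb5, Nqo1 and Pomp), called genes, the 2 with the lowest F test p of each role, the dimmest genes, and for other lists up to 4 called genes or the 2 with the largest difference. Alternatives were other normalization, probe filters, variance models, compared groups alone, a replicate block and single arrays left out. Replicate numbers are not stated to pair the arrays.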

Additional observations from a re-analysis of the deposited data

How the results depend on the processing

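The called differences of Psmf1, Psmg1 and Psmd5 kept their sign under every alternative run. Counts of called proteasome genes are small and moved with most choices. Quantile normalization gave 0 calls under low-fat PFOS (0.247% of all probes called), where Psmf1 was lost, and 1 in the F test (0.914%). Centring each array on its median gave 2 under high-fat PFOS (Psmd4 and Psmd5, 1.2% of all probes) and 1 under high-fat PFNA (Psmf1, 0.171%). Testing only probes above the median signal left fewer probes to adjust over. It gave 2 under low-fat PFOS (Psmf1 and Psmg1, 1.57% of these probes called). Under high-fat PFOS it gave 3 (Psmd4, Psmd5 and Psmf1, 4.61%) and under high-fat PFNA 1 (Psmf1, 0.667%). In the F test it gave 4 (4.16%). Fitting only the arrays of the 2 groups compared gave 0 under low-fat PFOS and 0 under high-fat PFOS. The calls over all probes were not counted in these fits. Array weights gave the same 2 genes as centring under high-fat PFOS (1.68% of all probes) and Psmf1 under high-fat PFNA (0.212%). A robust variance with trend did so as well (1.6% and 0.348%). With array weights the median over the 47 genes was 0.047 under low-fat PFOS, 0.040 under high-fat PFNA, −0.015 under low-fat PFNA and 0.34 under high-fat PFOS, beside 0.16, 0.11, 0.027 and 0.33. Averaging the probes of a gene changed none of these counts by over 1.5 times.

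Without low-fat PFOS replicate 3 and high-fat PFNA replicate 3 together, the count was 2 under low-fat PFOS (1.32% of all probes called). It was 9 under high-fat PFOS (2.93%) and 2 under high-fat PFNA (0.429%). Between the compounds on the high-fat diet it was 7 (1.48%), and in the F test 12 (4.89%). The 2 arrays were chosen from their measured values, so these counts are not independent evidence. The medians over the 47 genes without them were −0.043 under high-fat PFNA, 0.31 for the interaction with PFOS and −0.037 for that with PFNA, beside 0.11, 0.15 and 0.11 with all arrays.

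With single arrays left out, the count ranged from 0 to 1 under low-fat PFOS, 0 to 2 under low-fat PFNA, 0 to 0 under high-fat PFOS when an array of the compared groups was left out, 0 to 1 under high-fat PFNA and 1 to 4 in the F test. The median over the 47 genes ranged from 0 to 0.095 between the diets, 0.025 to 0.23 under low-fat PFOS, −0.042 to 0.062 under low-fat PFNA, 0.28 to 0.38 under high-fat PFOS and −0.043 to 0.21 under high-fat PFNA. It ranged from −0.19 to −0.005 between the compounds on the low-fat diet and −0.33 to −0.13 on the high-fat diet, and from 0.10 to 0.31 and −0.037 to 0.17 for the interactions with PFOS and PFNA.

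With the replicate number as a block there were 0 calls under low-fat PFOS (0.331% of all probes), 2 under high-fat PFOS (1.2%) and 1 in the F test (1.13%). The numbers are not stated to pair arrays. Arrays of the same number correlated in their deviations with a median r of −0.00119 over 45 pairs. The highest r was 0.421, and 3 of the 45 pairs were over 0.1. In 6 of 18 arrays, the mean r with arrays of other groups was highest for those of their own number. For arrays of different number the median was 0.00533 and the highest 0.224, with 2 of 90 pairs over 0.1. The cause of the shifts in the counts was not tested.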
